A study of Mus musculus with 2 samples.

Results

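Cytochrome P450 (Cyp) genes were examined in the H3K9me3 profile of mouse intestinal stem cells. The members are the protein-coding genes of the GRCm38.p6 RefSeq table whose symbol has the form Cyp, number, letters, number, and 93 of 21774 protein-coding genes met this. The rule passes over Cyp51 and genes whose symbol ends in a letter, such as Cyp3a41a. Chromatin immunoprecipitation (ChIP) for H3K9me3 gave 1 library, and there is 1 control library, which the labels call input in one place and IgG in another. Both libraries are from stem cells with high GFP and low CD24, sorted from C57BL/6 mice aged 8 weeks that carried Lgr5-EGFP-IRES-creERT2 and setdb1 fl/fl, and 12 mice are given for the sort. In this allele GFP and the inducible Cre are made under the Lgr5 gene, a marker of stem cells at the crypt base, and the floxed gene encodes the H3K9 methyltransferase Setdb1. The labels name no inducer and do not say whether Setdb1 had been deleted. A silencing mark gives no level of expression, so the sorted cell type could not be checked against its defining markers. There is no replicate and no further condition, so no difference between samples can be tested. The values below describe where the mark was called in this library, and intervals cover counting error alone. Positions are in GRCm38.

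Cytochrome P450 enzymes are haem proteins that add oxygen to their substrates with electrons from a reductase. Many members of families Cyp1, Cyp2 and Cyp3 oxidise drugs, plant toxins and other foreign compounds, and the mature absorptive cells of the intestine carry several of them as a first barrier to ingested chemicals. Members of family Cyp4 oxidise fatty acids and eicosanoids, and members with other family numbers make or break down steroid hormones, bile acids, vitamin D and retinoic acid. Families Cyp2, Cyp3 and Cyp4 lie largely in tandem arrays of related copies, while most of the enzymes with a fixed endogenous substrate are encoded by lone genes. H3K9me3 is a histone mark of silenced chromatin that is known to cover repeats and some arrays of duplicated genes.

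A gene was counted as marked when a peak of the deposited list overlapped, by at least 1 bp, the gene extended by 5 kb at each end. Of the 93 Cyp genes, 38 were marked (40.9%, exact 95% interval 30.8 to 51.5%), against 55.6% of all protein-coding genes. The observed share was lower for genes in tandem arrays than for lone genes. Clustered genes, defined as members of families Cyp2, Cyp3 and Cyp4 with another gene of their family within 500 kb, were marked in 18 of 63 cases (28.6%, 17.9 to 41.3%). Single-copy genes, with no other Cyp gene within 500 kb, were marked in 16 of 23 cases (69.6%, 47.1 to 86.8%). The remaining 7 genes lie beside a Cyp gene but are not in arrays of those families, and 4 of them were marked. The counting intervals of clustered and single-copy genes did not overlap here, but they did in 7 of 13 other settings tried for both classes. With a flank of 10 kb the upper bound of clustered genes was 52.8% and the lower bound of single-copy genes 51.6%, with peaks at or above the median score 36.2% and 26.8%, with peaks of at least 8-fold 36.2% and 34.5%, and by family alone 45.4% and 43.0%. Strong peaks, weak peaks and the nearest-gene rule were the other 3. Among the 13, a limit of 10 control tags and a cluster distance of 1 Mb left the counts of both classes unchanged. Genes in an array share a neighbourhood and can share a peak, so the 63 genes are not independent observations and the intervals are narrower than that would allow.

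**Figure D1:**
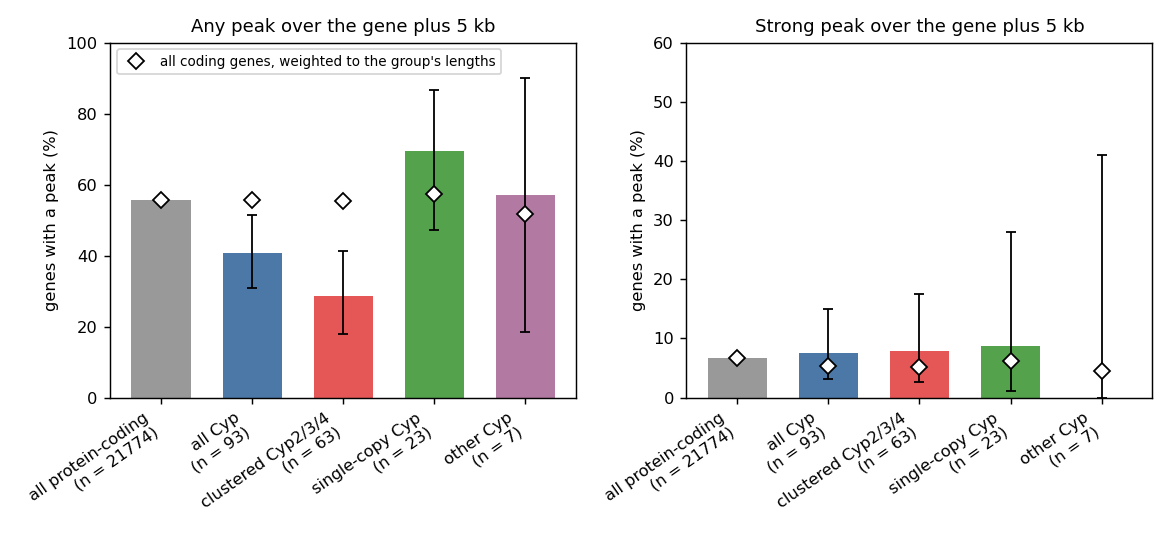
Percent of genes with any peak (left) and with a strong peak (right) over the gene plus 5 kb, as bars. Bars are given for all protein-coding genes, all Cyp genes and the classes of Cyp genes, with exact 95% binomial intervals as whiskers. Diamonds give the share of all protein-coding genes when weighted to the gene lengths of each group. Clustered genes stand at 28.6% and single-copy genes at 69.6% for any peak, while for strong peaks both stand close to all protein-coding genes.

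Clustered genes were not shorter than single-copy genes. Clustered genes had a median span of 23967 bp and single-copy genes one of 17018 bp. When all protein-coding genes were sorted into 6 length classes and weighted to the lengths of each group, the share with a peak was 55.3% for the lengths of clustered genes and 57.4% for those of single-copy genes. The clustered genes would have numbered 34.8 marked genes at those rates, where 18 were seen, and the single-copy genes 13.2, where 16 were seen. By length class, the counts for clustered and single-copy members were 1 of 8 and 1 of 2 under 5 kb, beside 36.2% of all protein-coding genes of that length. They were 0 of 6 and 3 of 4 at 5 to 10 kb, beside 53.5%, and 4 of 13 and 3 of 6 at 10 to 20 kb, beside 56.1%. At 20 to 40 kb they were 7 of 22 and 6 of 7, beside 56.5%, and at 40 to 80 kb 5 of 13 and 1 of 1, beside 63.1%. At 80 kb and over the order was turned, with 1 of 1 and 2 of 3, beside 79.7%. That 1 clustered gene is Cyp2c39, whose annotated span runs over Cyp2c38, and 3 of its 4 peaks also count for Cyp2c38.

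Lone members of the array families were marked about as often as other lone genes. Of the 9 single-copy genes that belong to families Cyp2, Cyp3 or Cyp4, 6 were marked (66.7%, 29.9 to 92.5%, an interval that overlaps that of clustered genes), and of the 14 single-copy genes of other families 10 were (71.4%, 41.9 to 91.6%). The marked lone members of the array families were Cyp2u1, Cyp2w1, Cyp2r1, Cyp2c23, Cyp4v3 and Cyp4f18. Cyp3a13, Cyp2e1 and Cyp2ab1 were the lone members of these families with no peak. Cyp3a13 is a Cyp3a enzyme encoded far from the array of its subfamily.

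In all, 59 distinct peaks lay over Cyp genes, or 1.73 per 100 kb of gene and flank, close to the 1.83 per 100 kb of all protein-coding genes. Clustered genes had 25 of these peaks (1.06 per 100 kb) and single-copy genes had 30 (3.24 per 100 kb). The peaks were mostly small. Their median was 18.5 ChIP tags, with a range of 9 to 87.5, against a median of 15.5 for peaks over all protein-coding genes. Fold over control, as the authors give it per peak, ranged from 4.68 to 47.21 around a median of 12.54. For 27 of the 59 peaks the control stood at its lowest value, 0.5 tag, and folds at that floor depend on it. No peak over a Cyp gene had more than 6.5 control tags.

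**Figure D2:**
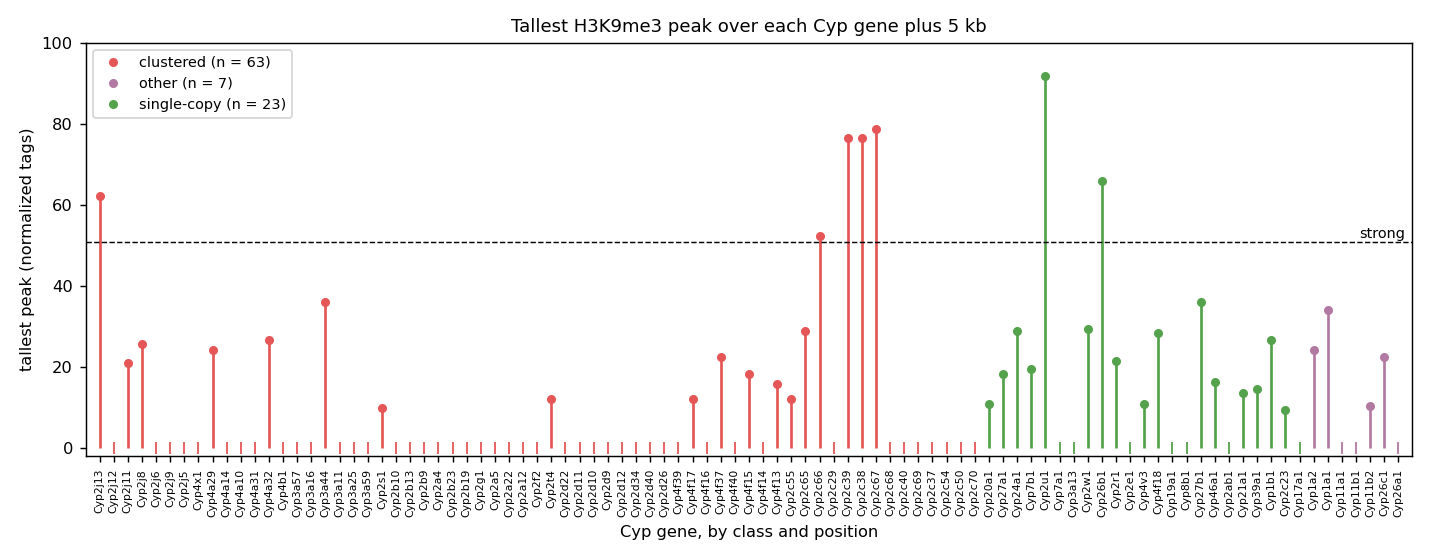
Normalized tag count of the tallest peak over each of the 93 Cyp genes plus 5 kb, ordered by class and by position along the genome. Genes with no peak carry a tick at 0, the dashed line marks the strong peaks, and 45 of the 63 clustered genes are at 0 against 7 of the 23 single-copy genes.

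Strong peaks did not follow the same division. A strong peak is one of the 10% of the list with the highest normalized tag count, which starts at 50.8 normalized tags. Strong peaks lay over 7 of 93 Cyp genes (7.53%), against 6.61% of all protein-coding genes. They were found at 5 of 63 clustered genes (7.94%, 2.63 to 17.6%) and at 2 of 23 single-copy genes (8.70%, 1.07 to 28.0%). Clustered genes thus had fewer peaks, while 5 of their 25 peaks were strong, against 3 of the 30 peaks of single-copy genes and 6.70% of peaks over all protein-coding genes. The clustered value rests on 5 peaks, 4 of them in the Cyp2c array. The weakest of the strong peaks over a member was at Cyp2c66 with 52.4 normalized tags, and the tallest below the limit were at Cyp3a44 and Cyp27b1 with 36.1 each.

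The tallest peak over any member was at Cyp2u1 on chromosome 3, which encodes a fatty acid hydroxylase. It covered the lower end of the gene (131289147 to 131292403) with 87.5 tags (Poisson 95% interval 70.1 to 108), 6 control tags and a fold of 9.98. A second strong peak lay 4217 bp beyond the other end of the gene and held 57 tags (43.2 to 73.9), and another peak of 30 tags lay inside it. Cyp2u1 was therefore marked at both ends, which no other member with a strong peak showed. Cyp26b1 on chromosome 6 encodes an enzyme that clears retinoic acid, and its strong peak lay inside the gene (84583648 to 84586372) with 63 tags (48.4 to 80.6), 1.5 control tags and a fold of 28.74. A second peak in Cyp26b1 held 9 tags, the lowest count in the whole list.

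Among clustered genes the strong peaks lay in the Cyp2c array of chromosome 19 and at 1 gene of the Cyp2j array of chromosome 4. Cyp2c enzymes oxidise drugs and arachidonic acid. Cyp2c67 had a peak of 75 tags (59.0 to 94.0) that began 1702 bp beyond its 3' end (39604198 to 39607142, fold 9.33). The tallest peak inside a Cyp2c gene lay in Cyp2c38 (39412382 to 39414264) with 73 tags (57.2 to 91.8), 3 control tags and a fold of 16.65. A peak of 62 tags lay 1046 bp beyond the 3' end of the same gene (39386245 to 39388510), with 6.5 control tags. The annotated span of Cyp2c39 runs over Cyp2c38, so both peaks count for both genes. Cyp2c66 had a peak of 50 tags inside the gene (39145572 to 39146726, 37.1 to 65.9, fold 34.21). Cyp2j13, of a subfamily that makes epoxides from arachidonic acid, had a peak of 59.5 tags inside the gene on chromosome 4 (96048555 to 96050754, 45.3 to 76.7, fold 20.36).

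The arrays themselves were not empty of the mark. The 63 clustered genes fall into 7 loci that together span 5388 kb from the first to the last gene of each. These loci held 99 peaks, or 18.4 per Mb, beside 14.7 per Mb over the whole genome. By array, 5 of the 7 lay below their own chromosome. The Cyp2d array held 14.2 per Mb beside 15.9 on chromosome 15, the Cyp4f array 16.2 beside 20.6 on chromosome 17, and the Cyp2c array 13.6 beside 14.8 on chromosome 19. The Cyp2j array held 12.9 and the array of Cyp4a, Cyp4b and Cyp4x genes 16.6, beside 19.01 on chromosome 4. The genes and their 5 kb flanks made up 42.4% of the length of the loci and held 24.2% of the peaks (24 of 99, exact 95% interval 16.2 to 33.9%). Over the genome, all protein-coding genes and their flanks made up 43.4% of the length and held 53.9% of the peaks. Inside the arrays, peaks therefore numbered 10.5 per Mb over the genes and 24.2 per Mb between them, and the density was lower over the genes in 5 of the 7 arrays. Of the 75 peaks between the genes, 63 touched no gene of the table, 8 touched a Cyp pseudogene or a Cyp gene outside the symbol rule, and 4 touched another gene. Of all 12 strong peaks in the loci, 7 lay between the member genes.

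**Figure D3:**
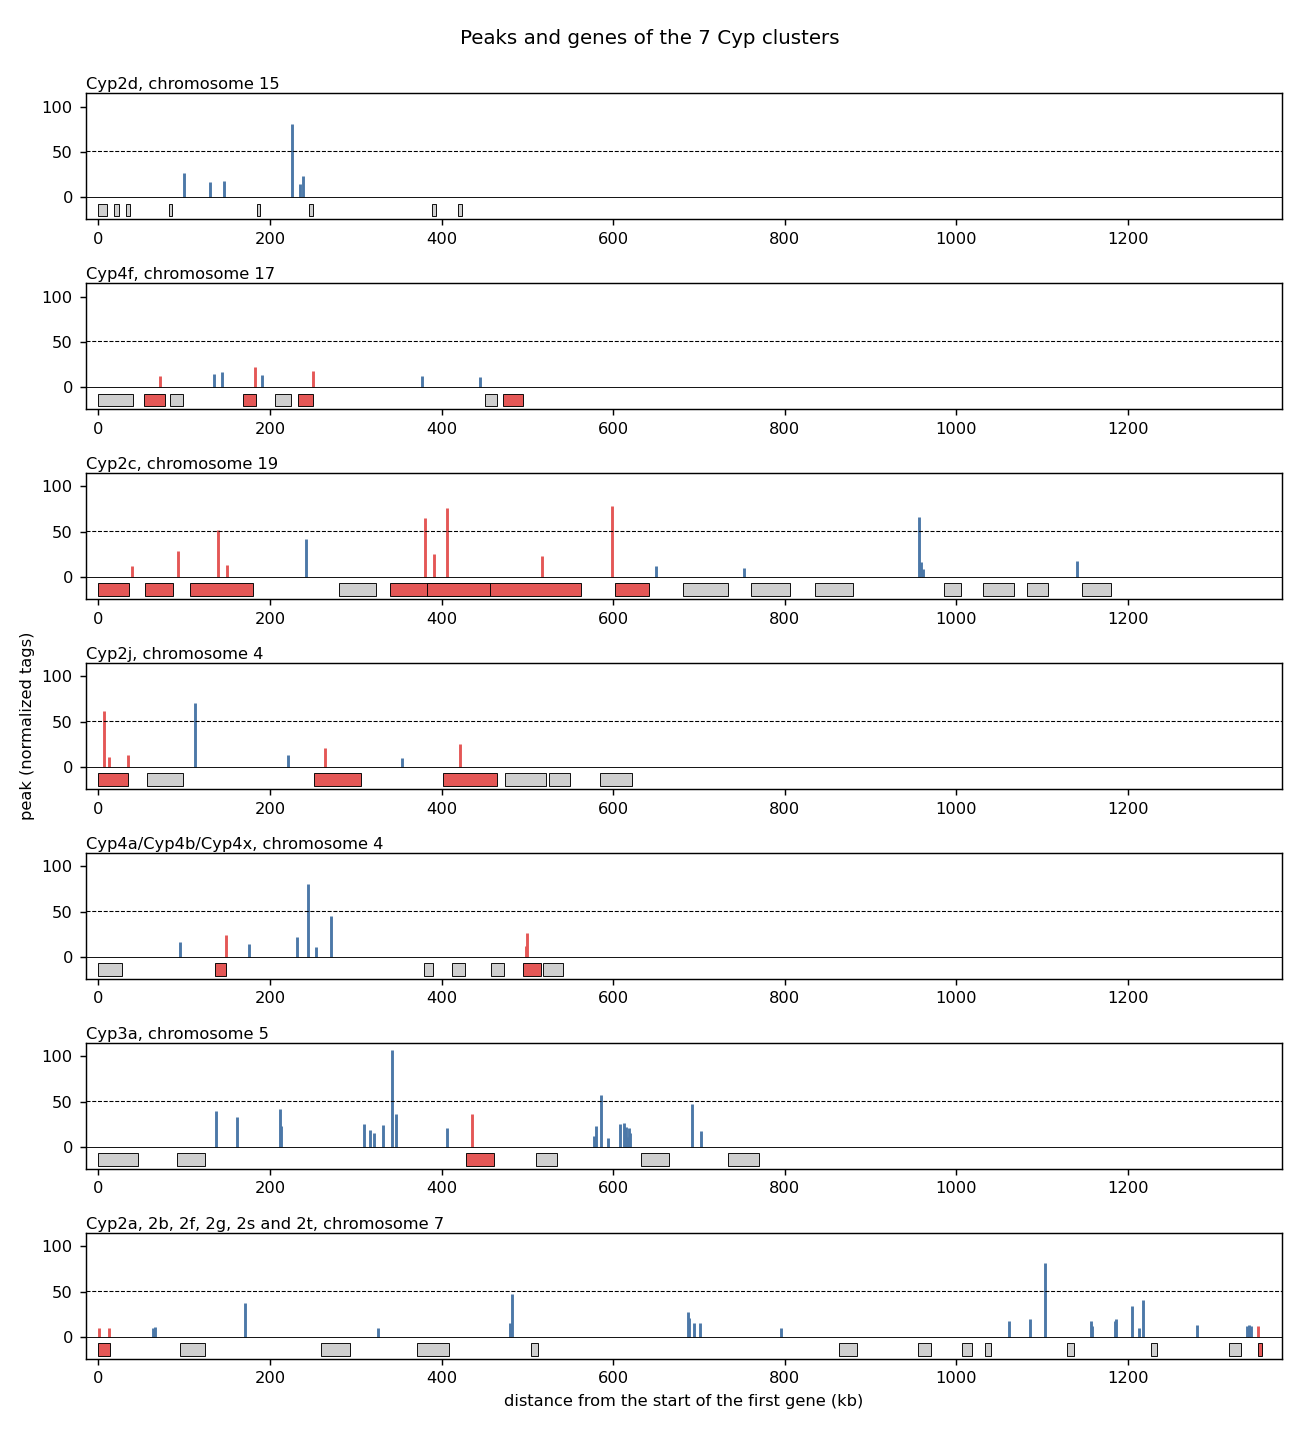
Peaks (vertical lines, height in normalized tags) and member genes (boxes) of the 7 Cyp arrays, by distance from the start of the first gene in kb. Red boxes are marked genes, grey boxes unmarked genes, red lines peaks within 5 kb of a member and blue lines the other peaks of the locus. Peaks that lie beyond the first or last gene are not drawn. In the Cyp3a array and in the array of chromosome 7 nearly all lines are blue and fall between grey boxes.

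The Cyp3a array and the array of chromosome 7 held the most peaks. The Cyp3a array of chromosome 5 encodes the main drug-oxidising enzymes of gut and liver. It spans 770 kb and held 24 peaks (31.2 per Mb, 19.97 to 46.4), above the 18.4 per Mb of its chromosome. Only 1 of the 24 touched a member, inside Cyp3a44 (145779810 to 145780855, 34.5 tags, 23.96 to 48.1, fold 9.44). Cyp3a57, Cyp3a16, Cyp3a11, Cyp3a25 and Cyp3a59 had no peak. The 23 peaks between the members had a median of 22.5 tags and included 2 strong ones, the taller with 102 tags (106.9 normalized), 4 control tags and a fold of 17.45. Of the 23, 22 touched no gene of the table. Cyp3a41a and Cyp3a41b, which lie in the same array and are left out by the symbol rule, had 1 and 2 peaks within 5 kb.

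The array of chromosome 7 holds Cyp2s1, the Cyp2b, Cyp2a, Cyp2g and Cyp2f genes and Cyp2t4 over 1356 kb. It held 28 peaks (20.6 per Mb, 13.7 to 29.8), beside 19.2 per Mb on the chromosome. Only Cyp2s1 and Cyp2t4, the first and the last gene of the array, were marked. Cyp2s1, an enzyme found mainly outside the liver, had peaks of 9 and 9.5 tags, and Cyp2t4 had 1 of 11.5 tags. The 11 genes between them, Cyp2b10, Cyp2b13, Cyp2b9, Cyp2a4, Cyp2b23, Cyp2b19, Cyp2g1, Cyp2a5, Cyp2a22, Cyp2a12 and Cyp2f2, had no peak, and the longest stretch without a peak ran over 265 kb and held 4 of them. The 25 peaks outside the members had a median of 15 tags. Without these 2 arrays, the other 5 held 47 peaks, of which 20 (42.6%, 28.3 to 57.8%) touched a member, and members and flanks made up 52.0% of the length. In those 5 arrays the density was 11.8 per Mb over the genes and 17.3 per Mb between them, and the counting interval of the share includes the share of length.

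In the Cyp2c array of 1180 kb, the genes from Cyp2c55 to Cyp2c67 included all 6 marked members, at 12 to 78.6 normalized tags for their tallest peaks, and 1 unmarked gene, Cyp2c29. The 7 genes after them, Cyp2c68, Cyp2c40, Cyp2c69, Cyp2c37, Cyp2c54, Cyp2c50 and Cyp2c70, had none. In the Cyp2j array of 622 kb, Cyp2j13, Cyp2j11 and Cyp2j8 were marked, and Cyp2j12 and the last 3 genes, Cyp2j6, Cyp2j9 and Cyp2j5, were not. A stretch of 199.8 kb without a peak covered those last 3 genes, and Cyp2j5 was the member farthest from any peak, at 163015 bp. The array of Cyp4x1, the Cyp4a genes and Cyp4b1, enzymes that hydroxylate fatty acids, had peaks at Cyp4a29 (23 tags, 132 bp beyond the gene) and Cyp4a32 (25.5 and 11.5 tags). Cyp4x1, Cyp4a14, Cyp4a10, Cyp4a31 and Cyp4b1 had none, and 225 kb without a peak covered the 3 Cyp4a genes among them. That stretch also covered Cyp4a12b and Cyp4a30b, which the symbol rule leaves out and which had no peak within 5 kb. Cyp4a12a, left out as well, lies in the same array and had 1.

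The Cyp4f array of chromosome 17, whose enzymes act on leukotrienes and other eicosanoids, had the highest share of marked genes of the 7 arrays, 4 of 8, and no strong peak. Marked and unmarked genes alternated along it. The tallest peaks of Cyp4f37, Cyp4f15, Cyp4f13 and Cyp4f17 held 21.5, 17.5, 15 and 11.5 tags, while Cyp4f39, Cyp4f16, Cyp4f40 and Cyp4f14 had none. The Cyp2d array of chromosome 15 was the reverse. None of its 8 genes, Cyp2d22, Cyp2d11, Cyp2d10, Cyp2d9, Cyp2d12, Cyp2d34, Cyp2d40 and Cyp2d26, had a peak within 5 kb (0%, 0 to 36.9%), although 6 peaks lay between them and 48 lay in the 500 kb on either side. Genes of this array are short, with a median of 4430 bp, and at the rates of their lengths 3.07 of the 8 would be marked.

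**Figure D4:**
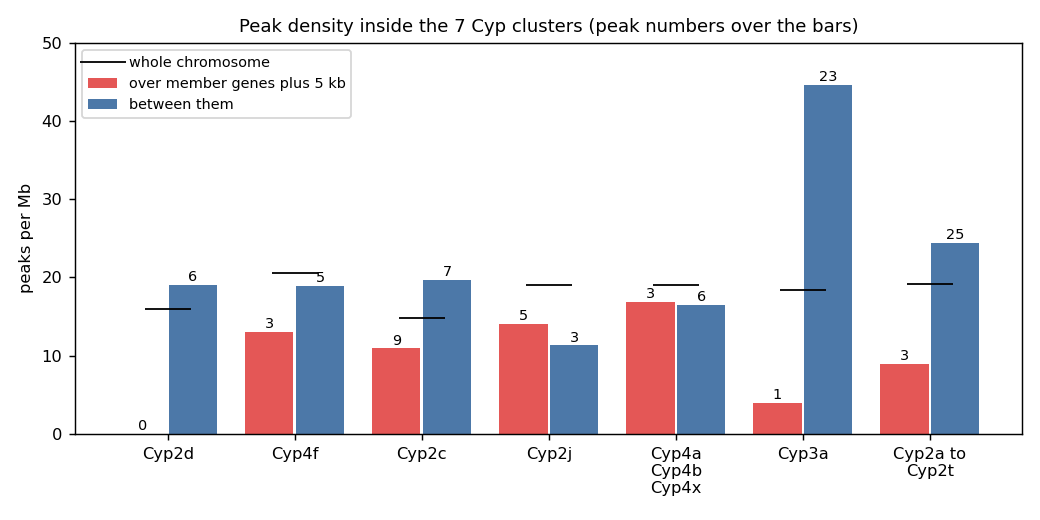
Peaks per Mb within each array, over the member genes plus 5 kb (red) and between them (blue), with peak numbers above the bars and the density of the whole chromosome as a horizontal line. The bars differ most in the Cyp3a array, with 1 peak over genes and 23 between them, and the order is turned in the Cyp2j array and, by a small margin, in the Cyp4a, Cyp4b and Cyp4x array.

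The genes around the arrays differed from array to array. Of 174 protein-coding genes of other kinds within 500 kb of a clustered Cyp gene, 111 were marked (63.8%, 56.2 to 70.9%), against 53.7% at the rates of their lengths. Of 451 within 500 kb of a single-copy Cyp gene, 313 were (69.4%, 64.9 to 73.6%), against 54.1%. The share of single-copy Cyp genes, 69.6%, thus lay close to that of the genes around them. In the 500 kb on either side, 35 of 41 genes were marked at the array of chromosome 7 and 25 of 30 at the Cyp2d array, beside 2 of 13 and 0 of 8 of the Cyp genes. The counts were 15 of 25 beside 4 of 8 at the Cyp4f array and 13 of 30 beside 1 of 6 at the Cyp3a array. At the array of Cyp4a, Cyp4b and Cyp4x genes they were 13 of 21 beside 2 of 7. The shares were close at the Cyp2c array, with 4 of 9 genes around it and 6 of 14 Cyp2c genes. Only at the Cyp2j array was the order turned, with 1 of 3 and 3 of 7. Peaks around the Cyp2c and Cyp2j arrays were few, at 10 and 5 per Mb. Other protein-coding genes that lie inside the arrays were few, 15 in all, and 5 of them were marked. Of the 55 unmarked members, the distance to the closest peak had a median of 23681 bp, and 8 had a peak within 10 kb of the span. The closest of these were Cyp2c70 at 5680 bp and Cyp4f14 at 5773 bp, just outside the window, while the peaks of Cyp2c65 and Cyp11b2 lay just inside it, at 4900 and 4780 bp.

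Copies in an array can be alike enough that short reads do not map to one of them alone, and the handling of such reads is not given in the sources used here. RefSeq windows of 300 bases around the gene start were at hand for 73 members. The closest other Cyp window had a median identity of 76.3% for 53 clustered genes (range 61.3 to 99.3%) and of 62.3% for 15 single-copy genes (60.7 to 64.7%). The alignment gave such low values to genes of different families as well, with 62.3% for Cyp19a1 and Cyp2c39 and for Cyp2j5 and Cyp3a11. Identities near 62.3% therefore do not show likeness. Of the 23 clustered genes with a window at 80% identity or more to another, 5 were marked, and of the 30 below 80%, 12 were. Of the 11 at 90% or more, Cyp3a44 alone was marked, and Cyp2b9 and Cyp2b13, at 99.3% to each other, were both without a peak. The part of this likeness in the low share of marked clustered genes was not tested, and the values of near-identical copies are uncertain for that reason.

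Ends of genes showed the same order of classes. A peak within 2 kb of either end was found at 22 of 93 Cyp genes (23.7%), against 36.7% of all protein-coding genes. It was found at 8 of 63 clustered genes (12.7%, 5.65 to 23.5%) and at 12 of 23 single-copy genes (52.2%, 30.6 to 73.2%). Gene starts proper, taken from the RefSeq windows, lay inside a peak for 5 of 73 members (6.85%), against 15.3% of protein-coding genes with such a window. That 15.3% is not matched for CG dinucleotides, of which members had a median of 3 per window and all protein-coding genes 15. Cyp1b1, Cyp27a1, Cyp2r1 and Cyp4v3 are single-copy genes, 4 of 15 with a window, and Cyp2j13 was the 1 of 53 clustered genes. Their windows are shown because a peak lies on the start of the gene, each from 250 bases before the start to 50 after it, 5' to 3' on the strand of the gene in GRCm38.p6, with every CG dinucleotide in capitals, since CG-rich starts are the usual form of promoters that are active in many tissues.
Cyp1b1, chr17:79715012-79715311, minus strand: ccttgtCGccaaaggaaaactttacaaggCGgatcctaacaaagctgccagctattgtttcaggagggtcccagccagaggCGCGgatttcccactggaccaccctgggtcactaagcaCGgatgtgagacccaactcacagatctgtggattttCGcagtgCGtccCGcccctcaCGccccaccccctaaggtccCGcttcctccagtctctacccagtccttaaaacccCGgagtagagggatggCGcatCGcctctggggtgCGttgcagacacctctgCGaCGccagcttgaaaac
Cyp27a1, chr1:74713285-74713584, plus strand: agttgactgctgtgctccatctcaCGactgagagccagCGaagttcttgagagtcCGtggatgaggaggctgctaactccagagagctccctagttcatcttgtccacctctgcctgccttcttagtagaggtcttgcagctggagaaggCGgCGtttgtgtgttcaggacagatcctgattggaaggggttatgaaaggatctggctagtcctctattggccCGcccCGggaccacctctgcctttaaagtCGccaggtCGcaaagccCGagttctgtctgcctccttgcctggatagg
Cyp2r1, chr7:114562923-114563222, minus strand: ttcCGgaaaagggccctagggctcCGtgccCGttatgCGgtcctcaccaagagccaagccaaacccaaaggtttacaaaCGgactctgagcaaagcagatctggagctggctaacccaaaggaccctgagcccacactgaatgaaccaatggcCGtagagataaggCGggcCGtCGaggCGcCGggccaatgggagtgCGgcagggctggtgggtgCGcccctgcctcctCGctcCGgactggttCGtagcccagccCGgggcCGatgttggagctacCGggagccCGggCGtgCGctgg
Cyp4v3, chr8:45333114-45333413, minus strand: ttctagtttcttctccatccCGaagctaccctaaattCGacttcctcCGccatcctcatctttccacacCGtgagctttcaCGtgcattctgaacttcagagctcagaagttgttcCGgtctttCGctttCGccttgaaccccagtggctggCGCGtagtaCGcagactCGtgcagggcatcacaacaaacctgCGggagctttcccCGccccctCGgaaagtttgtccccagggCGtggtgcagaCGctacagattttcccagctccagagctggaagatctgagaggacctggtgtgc
Cyp2j13, chr4:96077491-96077790, minus strand: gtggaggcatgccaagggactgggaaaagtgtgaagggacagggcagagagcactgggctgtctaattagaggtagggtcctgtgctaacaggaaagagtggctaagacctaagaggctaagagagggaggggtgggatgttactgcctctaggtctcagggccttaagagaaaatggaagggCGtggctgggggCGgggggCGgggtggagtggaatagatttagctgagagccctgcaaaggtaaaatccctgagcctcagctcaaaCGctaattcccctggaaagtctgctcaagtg

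The windows differ in their CG content. Cyp2r1 has 22 CG dinucleotides, Cyp4v3 has 17, Cyp1b1 has 16 and Cyp27a1 has 10, while Cyp2j13 has 4. Over all members the median was 3, with 2 for clustered and 6 for single-copy genes, against 15 for all protein-coding genes. Only 9 of the 73 members had 10 or more CG in the window, and the start lay in a peak for 4 of them (44.4%), beside 21.7% of the 10408 protein-coding genes with that many. Of the 64 members with fewer, Cyp2j13 alone had its start in a peak (1.56%), beside 5.90% of protein-coding genes. The CG-rich members without a peak on the start were Cyp46a1 (31), Cyp26a1 (26), Cyp20a1 (20), Cyp2s1 (17) and Cyp4f39 (11). The letters GCGTG, on either strand, are the core of the element that the dioxin receptor binds. They occurred in 16 of 73 members (21.9%) and in 41.4% of protein-coding genes. GCGTG itself holds a CG, and these shares are not matched for the lower CG content of members. The letters occurred once each in the windows of Cyp1b1, Cyp2r1, Cyp4v3 and Cyp2j13 and not in that of Cyp27a1.

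**Figure D5:**
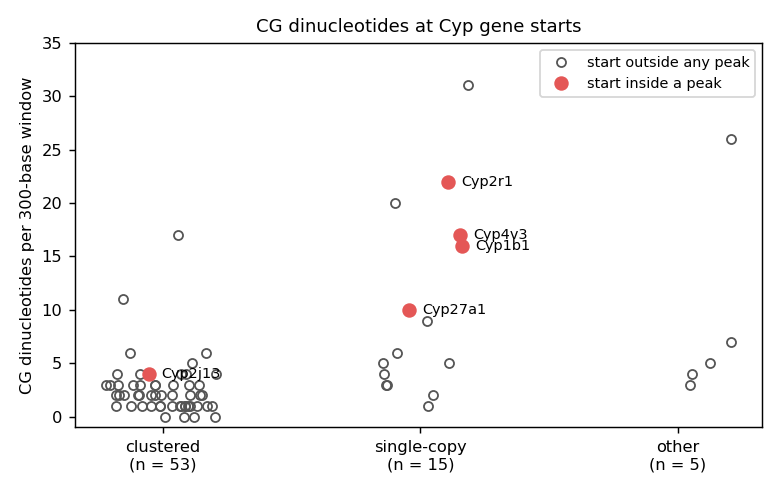
Number of CG dinucleotides in the 300-base window at the start of each of 73 Cyp genes, by class, with points spread sideways for legibility. Filled points are the 5 genes whose start lies inside a peak. Clustered genes lie at a median of 2 and single-copy genes at 6, and 4 of the 5 filled points have 10 or more.

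The peaks on these starts were small. Cyp1b1, which oxidises aromatic hydrocarbons and oestrogens, had 25.5 tags over its start (79715008 to 79716108, 16.6 to 37.5) with 2 control tags, and a second peak of 23 tags inside the gene. Cyp2r1, which makes 25-hydroxyvitamin D, had 20.5 tags (12.6 to 31.5) beside 3 control tags, and its fold of 4.68 was the lowest over any member. Cyp27a1, the mitochondrial sterol hydroxylase of bile acid synthesis, had 17.5 tags (10.3 to 27.8) at the control floor. Cyp2j13 had 13 tags (6.92 to 22.2) and Cyp4v3, a fatty acid hydroxylase, had 10.5 tags (5.14 to 19.0).

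By role, 14 of 49 foreign-compound enzymes were marked (28.6%, 16.6 to 43.3%), against 54.2% at the rates of their lengths, and 4 of them had a strong peak. Array genes make up 41 of the 49, with 9 marked, so this share largely repeats that of the clustered class. All 3 genes of family Cyp1, the enzymes induced by the dioxin receptor, were among the 14. Cyp1a2 had a peak of 23 tags inside the gene (57681451 to 57682632 on chromosome 9, fold 15.74). Cyp1a1 had 1 of 32.5 tags that lay 3664 bp beyond the gene and touched the neighbouring gene Edc3. Cyp2w1 had the most peaks of any single-copy member, 4, with a tallest of 28 tags inside the gene and 2 of 9 and 9.5 tags that touched the neighbouring gene 3110082I17Rik. The enzymes of fatty acids and eicosanoids were marked in 12 of 25 cases (48.0%, 27.8 to 68.7%), and the 57.6% given by their lengths lies within that interval. Besides the genes of the arrays these included Cyp4f18 with 27 tags at an end of the gene (17.8 to 39.3, fold 18.47).

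The smaller groups with endogenous substrates hold too few genes for their shares to be set apart. Of the vitamin D enzymes all 3 were marked. Cyp27b1, which makes the active hormone, had 3 peaks, and 2 of them held 34.5 and 32.5 tags at folds of 47.21 and 44.47, the highest over any member. Both rested on 0.5 control tag, lay outside the gene and touched its neighbours Mettl1 and Marchf9. Cyp24a1, which breaks vitamin D down, had 27.5 tags over one end of the gene, in a peak that also touched Pfdn4. Of the 3 retinoic acid enzymes, Cyp26b1 and Cyp26c1 were marked and Cyp26a1 was not. The peak of Cyp26c1 covered the lower end of the gene with 21.5 tags and ended before the start used for its window.

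Of the 6 enzymes of cholesterol and bile acids, 4 were marked. Cyp7b1 and Cyp46a1, which hydroxylate oxysterols and brain cholesterol respectively, had 3 peaks each, with tallest peaks of 18.5 and 15.5 tags, and Cyp39a1 had 1 of 14 tags. Cyp7a1, the rate-limiting enzyme of bile acid synthesis, and Cyp8b1 had none. Of the 6 enzymes of steroid hormones, 2 were marked. Cyp21a1 had peaks of 13 and 11.5 tags outside the gene, and Cyp11b2 had 1 of 10 tags at 4780 bp. Cyp11a1, Cyp11b1, Cyp17a1 and Cyp19a1 had none, and Cyp19a1 was the longest member without a peak, at 102228 bp. Cyp20a1, an enzyme with no settled substrate, had 1 peak of 10.5 tags, and Cyp2c23 had 1 of 9.

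Peaks shared with other genes lay mostly at single-copy members. Of the 59, 42 touched the span of a member and 17 lay in a flank alone, while 6 touched another protein-coding gene and 12 had one within 5 kb. For single-copy genes 5 of 30 peaks touched another gene and 9 had one within 5 kb, and for clustered genes 0 and 1 of 25. Without the peaks that touch another gene, 65.2% of single-copy and 28.6% of clustered genes were marked. Only Cyp1a1 and Cyp24a1 were marked solely through a peak that touched another gene. Counted per gene where the strand was known, 4 flank peaks lay upstream and 10 downstream of the gene. The 10 include the peak beyond Cyp2c38, which touches the span of Cyp2c39 and so is not among the 17.

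Of 23 electron donors, receptors and other regulators that work with the P450 enzymes, 16 were marked (69.6%, 47.1 to 86.8%), against 59.6% at the rates of their lengths, which lies within that interval. All 3 P450 genes named otherwise, Cyp51, Ptgis and Tbxas1, had peaks, with 24.5 tags at an end of Cyp51, the sterol demethylase of cholesterol synthesis. Of 7 electron donors, 5 were marked. Por, the reductase that serves the microsomal P450 enzymes, had 4 peaks with a tallest of 46.5 tags (fold 6.36), and Cyb5r3 had 5 peaks, while Cyb5a and Fdx1 had none. Of 16 receptors and other regulators, 11 were marked. Rxra had 13 peaks, none above 19 tags, Rara had 9 and Vdr had 5, with 33.5 tags in the tallest. Nr5a1, a regulator of steroid enzymes, was the only partner gene with a strong peak (52 tags). Ahr, the dioxin receptor, had 1 peak of 9.5 tags, and Nr1i2 and Nr1i3, the receptors that induce Cyp3a and Cyp2b genes, had none. Arnt, Nr1h4 and Nr0b2 had none either.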

How the data were processed

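H3K9me3 was measured in 1 ChIP and 1 control library, and the deposited list holds 40119 peaks. Bowtie2 2.2.8, HOMER 4.10.1, GRCm38 and mm10 are named, per the submitters' processing notes. Caller options, and how reads with several matches were treated, were not given in the sources used here. Per the file headers, the normalized tag count and the control tags are a signal per peak, the tag count being scaled to a total the sources leave unstated, and the fold over control is a ratio, with 4 the lowest. The authors' score ranked peaks within the list, and the deposited p-value was not used. Tags were recovered from the step of low normalized counts (0.524 per 0.5 tag, with 100% of values below 60 whole within a tolerance of 0.1). Library totals are unknown.

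Genes and start windows came from RefSeq (GRCm38.p6). Shares have exact Clopper-Pearson and tags exact Poisson 95% intervals, for counting error only. No test was made, for want of replicates. Length classes were bounded at 5, 10, 20, 40 and 80 kb. Window identity came from alignment in Biopython 1.88. The overlap code was tested on simulated data. Members, classes and gene lists were chosen with earlier results of these data known. Any member could be named, and values were given for those with strong, many or end peaks, for each array and for a few fixed genes. Alternatives varied the window, overlap rule, peak threshold, control tags, cluster distance, classing by family, nearest-gene assignment and merging of peaks.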

Additional observations from a re-analysis of the deposited data

How the results depend on the processing

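Clustered genes were marked less often than single-copy genes under each setting tried for both classes. A limit of 10 control tags and a cluster distance of 1 Mb left the counts of both classes as they were, so these settings add nothing. With strong peaks the gap nearly closed, at 7.94% of clustered and 8.70% of single-copy genes, and all Cyp genes stood at 7.53%, beside 6.61% of all protein-coding genes. With weak peaks, those below the median tag count, the shares were 12.7%, 43.5% and 20.4% in that order, beside 37.9%. When each peak was given once to the nearest protein-coding gene at any distance, clustered genes rose to 58.7% and all Cyp genes to 64.5%, beside 62.2% of all protein-coding genes. Against all protein-coding genes, the low share of clustered genes thus holds for any peak and for weak peaks over genes. It does not hold for strong peaks over genes, nor for peaks assigned across the gaps of the arrays. Single-copy genes stood at 78.3% under that rule, still above clustered genes. In the other settings each share stayed inside its main counting interval, in 8 settings for all Cyp genes and 11 for clustered genes. Single-copy genes stayed inside theirs in 11 settings, among them the nearest-gene rule, but fell to 47.8% with peaks at or above the median score. The number of peaks stayed within 1.5 times. Of all these settings, 2 were chosen after the data were seen. They added the 5 coding genes whose symbol ends in a letter (30.9% of 68 clustered genes) or left out peaks that touch another gene (65.2% of single-copy genes). No paired analysis was possible because there is 1 library per group. Most peaks rest on few tags, so a gene without a peak may hold the mark below the lowest count called, 9 tags.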
